A study of Mus musculus with 6 samples.

Results

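C57BL/6 mice aged 10 months gave the brain microglia, the resident macrophages of the brain, whose RNA was sequenced here, and the subject is 10 immediate early genes of the AP-1 and EGR type within those libraries. They are the table rows with the symbols Fos, Fosb, Jun, Junb, Jund, Atf3, Egr1, Egr2, Egr3 and Ier2, so 10 of the 55414 genes listed. The design has 2 groups of 3 libraries, wild type (WT) and Selk-/- (a knockout of the selenoprotein gene Selenok), all from mice 10 months old. The labels give no other allele, agent or treatment, no promoter-driven transgene and no method of isolating the cells. Nor do they tie a library to a single animal, so p-values measure only how far these libraries spread, some of which may be technical, and the titles of both libraries called replicate 3 carry 2 numbers.

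Immediate early genes are transcribed within minutes of a stimulus, from transcription factors already present in the cell and without new protein. FOS and JUN proteins pair through leucine zippers to form AP-1, which binds the promoters and enhancers of later response genes, ATF3 can join the same dimers, and EGR proteins bind GC-rich sites through zinc fingers. In microglia these genes are known to respond to cytokines, growth factors and ATP, and also to dissociating and sorting the cells at warm temperature, for which reason they are often read as a mark of activation during isolation. No library of undissociated tissue is analysed here, and the part of isolation in the levels below was not tested.

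Start regions are shown for 3 members. Levels of Fos and Fosb overlapped between the 2 groups, and Egr2 was the only member higher in every Selk-/- library than in any WT library. Of all genes tested, 12.5% showed that pattern, and Egr2 did not pass the main test given below. Promoter windows came from RefSeq (build GRCm38.p6). Each ran from 250 bases before to 50 bases after the start, 300 bases in all, written along the gene. The search used 11 windows of 7 of the 10 members, 5 of them for Egr2. Capitals mark CArG boxes, the sites of serum response factor, and TGACG, the core of the cAMP response element, on either strand.
Fos, chr12:85473640-85473939, plus strand: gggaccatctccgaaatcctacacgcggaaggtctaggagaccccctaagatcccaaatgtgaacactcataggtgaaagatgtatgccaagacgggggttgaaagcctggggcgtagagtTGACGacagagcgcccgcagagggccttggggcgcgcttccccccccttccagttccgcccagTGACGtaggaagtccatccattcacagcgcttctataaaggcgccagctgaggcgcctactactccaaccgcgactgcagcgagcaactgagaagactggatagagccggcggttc
Fosb, chr7:19309996-19310295, minus strand: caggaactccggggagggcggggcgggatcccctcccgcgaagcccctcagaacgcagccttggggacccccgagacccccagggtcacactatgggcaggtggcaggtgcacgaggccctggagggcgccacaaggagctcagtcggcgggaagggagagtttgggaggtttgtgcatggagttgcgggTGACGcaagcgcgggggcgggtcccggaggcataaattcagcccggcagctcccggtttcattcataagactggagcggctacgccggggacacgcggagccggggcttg
Egr2, chr10:67537619-67537918, plus strand: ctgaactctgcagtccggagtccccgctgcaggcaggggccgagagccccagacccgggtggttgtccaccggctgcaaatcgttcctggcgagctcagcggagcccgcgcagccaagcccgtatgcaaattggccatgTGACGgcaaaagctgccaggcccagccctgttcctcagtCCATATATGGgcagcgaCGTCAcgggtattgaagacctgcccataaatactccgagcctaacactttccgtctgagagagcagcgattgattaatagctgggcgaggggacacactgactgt

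The Egr2 window held a CArG box 72 to 63 bases before the start, with TGACG cores 111 to 107 bases before it on the plus strand and 55 to 51 bases before it on the minus strand. Fos held cores 129 to 125 and 66 to 62 bases before its start, and Fosb held one 60 to 56 bases before. Over both strands, a CArG box was present in 4 of the 11 member windows, all of them of Egr2 and holding only 2 distinct boxes because 3 of the windows overlap, and in 1.63% of all 32851 windows. TGACG was present in 7 of the 11 member windows and in 20.8% of all windows. The 7 belong to 5 members (Fos, Fosb, Junb, Atf3 and Egr2) and include the 3 overlapping windows of Egr2. The full element TGACGTCA, which contains it, and the AP-1 site TGAGTCA were in none of the 11 windows, against 1.79% and 5.20% of all windows. The EGR site GCGNGGGCG was in the Fosb window and in 5.55% of all windows. These are letter matches only, and nothing in the libraries measured binding to them. Egr3 and Ier2 had no window available and Egr1 was left out, so none of these was searched. Sites more than 250 bases before a start were not searched either. A CArG box is therefore not shown to be particular to Egr2 among the members.

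Levels were high in every library. The 10 genes together took 1.502% (95% Wilson interval 1.498% to 1.507%) of all counts in WT replicate 2, the lowest share, and 1.776% (1.772% to 1.781%) in WT replicate 1, the highest; the 3 Selk-/- libraries lay between them, at 1.59% to 1.69%. These intervals cover counting error only. In FPKM, which scales fragments by gene length and library size and so allows genes to be compared, Junb stood between rank 24 and rank 30 of all 55414 genes in each of the 6 libraries and Fos between rank 30 and rank 43. Mean FPKM over the 6 libraries was 1489.9 for Junb, 1241 for Fos, 755 for Jun, 537 for Egr1, 499 for Ier2, 431 for Atf3, 428 for Jund, 412 for Fosb, 49.6 for Egr2 and 28.6 for Egr3. For scale, P2ry12 and Cx3cr1, receptors that mark resting microglia, had a mean of 980.0 and 595 FPKM, so Fos and Junb stood above both.

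**Figure D1:**
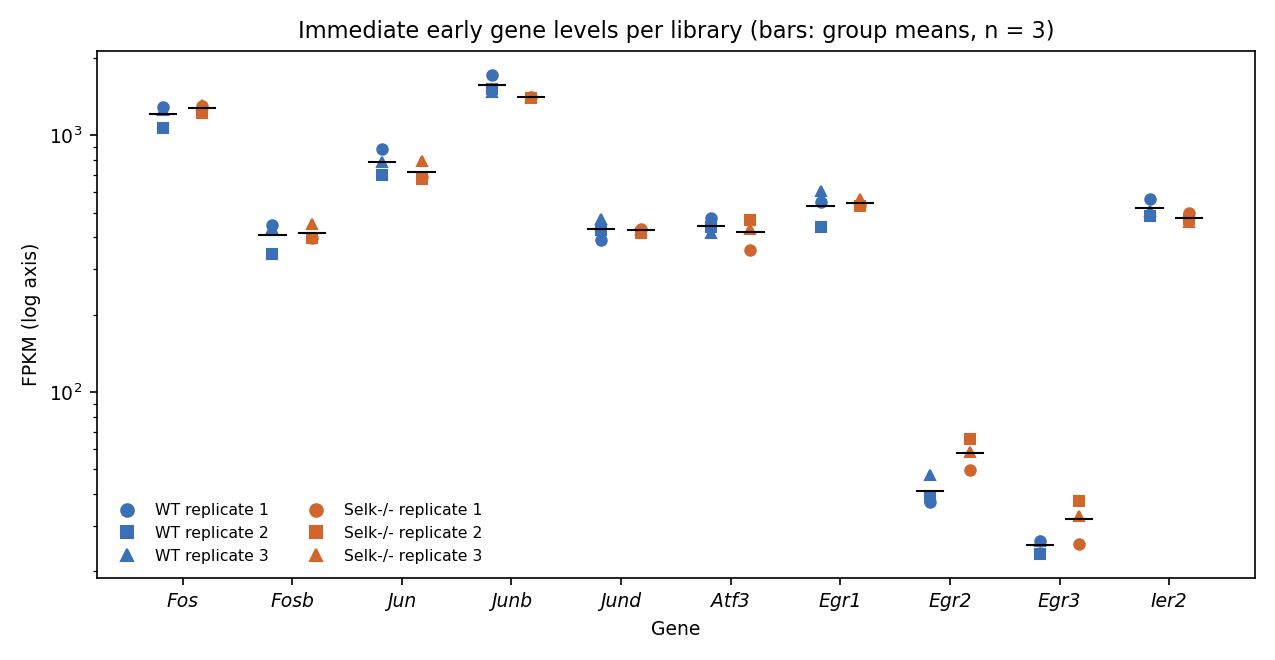
FPKM of each of the 10 genes (log axis) in each of the 6 libraries, with bars at the group means (n = 3). Junb and Fos lie at 1067 FPKM or more in all 6 libraries, and Egr2 and Egr3 at 65.6 FPKM or less. Only for Egr2 and Junb do the 2 groups not overlap in scaled counts, as for 26.2% of all genes tested.

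The order of the members was stable at the top. Junb was above Fos and Fos above Jun in all 6 libraries, and Jun was above all the rest. Egr1 (439 to 605 FPKM) and Ier2 (461 to 567 FPKM) changed places between libraries, as did Atf3, Jund and Fosb, which follow in the order of means (Fosb was 346 to 449.8 FPKM, Jund 392 to 471 FPKM and Atf3 357 to 476 FPKM). Egr2 (37.2 to 65.6 FPKM) and Egr3 (23.4 to 37.6 FPKM) overlapped between them across libraries by a narrow margin, and Egr2 was above Egr3 within each library.

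The comparison of the libraries labelled Selk-/- with WT asks whether loss of the selenoprotein goes with a different immediate early response. With edgeR's quasi-likelihood test across 17739 genes, 0 of the 10 members passed an adjusted p of 0.05, and neither did any other gene (0% of genes tested). DESeq2 called 1 member, Egr2, as higher and 0 as lower, against 3.43% and 2.53% of the 17739 genes, 5.95% in all. These DESeq2 shares, here and below, also include genes of low count to which DESeq2 gave no adjusted p. The shares among the genes it judged are therefore higher. At an unadjusted p under 0.05, 2 members were higher in Selk-/- (Egr2 and Egr3), against a background of 9.34% of genes, and 0 were lower, against 9.74%. By sign alone 6 members were higher and 4 lower, where 48.7% of all genes were higher. The 2 groups did not overlap for 2 members, Egr2 and Junb, and for 26.2% of all genes. The median log2 fold change over the members was 0.03, and over all genes tested it was -0.01. Selenok itself had 112, 125 and 119.7 CPM in WT and 112, 108 and 109 CPM in Selk-/- (means 119 ± 6.57 and 109.7 ± 2.19, SD, n = 3 each). The groups overlapped and the difference did not pass the test (edgeR adjusted p = 0.381), so this count does not check the labels.

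**Figure D2:**
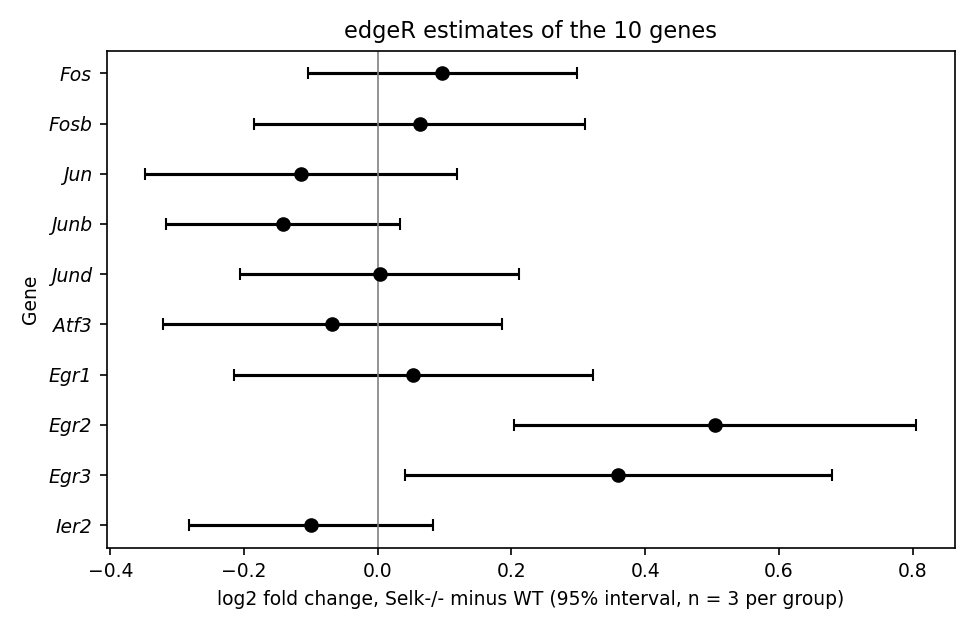
Log2 fold change of each gene (Selk-/- minus WT, edgeR) with its 95% interval, 3 libraries per group. The intervals of Egr2 (0.20 to 0.81) and Egr3 (0.04 to 0.68) lie above 0 before any adjustment, and those of the other 8 genes include 0.

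The FOS family gave nearly level values. Fos, the founding partner of JUN in AP-1, had 3055, 2613 and 3070.3 CPM (counts scaled to library size, with TMM factors) in WT replicates 1 to 3 and 3176, 2989 and 3179.6 CPM in Selk-/- replicates 1 to 3. WT replicate 2 was the lowest and the other 5 libraries lay within 2989 to 3179.6 CPM, so the groups overlapped. Selk-/- exceeded WT by 0.10 in log2 (SE 0.087, 95% interval -0.10 to 0.30; edgeR adjusted p = 0.572); on the linear scale the interval runs from 0.93 to 1.23 times the WT level. Fosb, whose truncated splice form is the long-lived delta-FosB of chronically stimulated neurons, had 1689.7, 1348 and 1691 CPM in WT and 1583, 1591 and 1764 CPM in Selk-/-. Again WT replicate 2 was the lowest library, and the groups overlapped (log2 fold change 0.06, SE 0.11; edgeR adjusted p = 0.78).

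None of the JUN genes passed the test. Jun, the AP-1 subunit switched on by JNK phosphorylation, had 3217, 2649 and 2944 CPM in WT and 2589, 2563 and 2982 CPM in Selk-/-. Selk-/- replicate 3 lay inside the WT range and the other 2 below it, a log2 fold change of -0.12 (SE 0.1004; edgeR adjusted p = 0.562). Junb, which competes with JUN for the same partners, had 3564, 3253 and 3128 CPM in WT and 3026, 2989 and 2998 CPM in Selk-/-. All 3 Selk-/- libraries were below the lowest WT library, and 13.7% of all genes tested showed such a lower, non-overlapping pattern. Junb did not pass the test, with an estimate of -0.14 in log2 (SE 0.076, 95% interval -0.32 to 0.03; edgeR adjusted p = 0.35). Jund, the JUN member that most cells express without a stimulus, had 748, 840.1 and 921 CPM in WT and 852, 824 and 838 CPM in Selk-/-. Its Selk-/- libraries all lay within the WT range, with a log2 fold change of 0.003 (SE 0.0898; edgeR adjusted p = 0.989).

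How the counting treated strand is not stated, so reads of genes that overlap on opposite strands cannot be told apart. Junb overlaps Prdx2 (mean 90.9 CPM), Jun overlaps the non-coding gene Junos (1.51 CPM) and Jund overlaps Gm11175 (1.77 CPM), all small beside the member's own count.

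Atf3, a stress-induced bZIP repressor, had 1079, 1030.2 and 973 CPM in WT and 837, 1100.1 and 1003 CPM in Selk-/-. Selk-/- replicate 1 was the lowest and Selk-/- replicate 2 the highest of the 6 libraries, so the spread within Selk-/- (SD 133 CPM) exceeded that within WT (SD 53.1 CPM) and the difference (log2 fold change -0.07, SE 0.11; edgeR adjusted p = 0.765). Ier2, a small nuclear protein gene induced with Fos, had 988, 873 and 905 CPM in WT and 901, 855 and 825 CPM in Selk-/-. Selk-/- replicate 1 lay inside the WT range and the other 2 below it (log2 fold change -0.0997, SE 0.0788; edgeR adjusted p = 0.524).

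The 3 EGR genes all had estimates above 0, and none passed the edgeR threshold. Egr1, the zinc-finger factor that most growth stimuli induce, had 2804, 2323 and 3186 CPM in WT and 2830.1, 2826 and 2971 CPM in Selk-/-. The WT libraries enclosed the Selk-/- libraries (log2 fold change 0.05, SE 0.12; edgeR adjusted p = 0.833). Egr2, also called Krox-20 and best known for myelination by Schwann cells, had 124, 134 and 162 CPM in WT and 172, 224 and 201 CPM in Selk-/-. Every Selk-/- library was above every WT library, a higher, non-overlapping pattern that 12.5% of genes tested shared. The group means were 140.0 ± 19.5 and 199 ± 26.0 CPM (SD, n = 3 each), a ratio of 1.42 (95% interval 1.15 to 1.75). The log2 fold change of 0.50 (SE 0.13) had an unadjusted p of 0.00492 in edgeR and missed the threshold after adjustment (edgeR adjusted p = 0.126), while DESeq2 called it (adjusted p = 0.00501). Egr3, a close relative with the same kind of DNA-binding zinc fingers, had 110.1, 98.0 and 112 CPM in WT and 111, 162 and 138 CPM in Selk-/-. Selk-/- replicate 1 lay inside the WT range and the other 2 above it (log2 fold change 0.36, SE 0.14; edgeR adjusted p = 0.221; DESeq2 adjusted p = 0.0839).

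**Figure D3:**
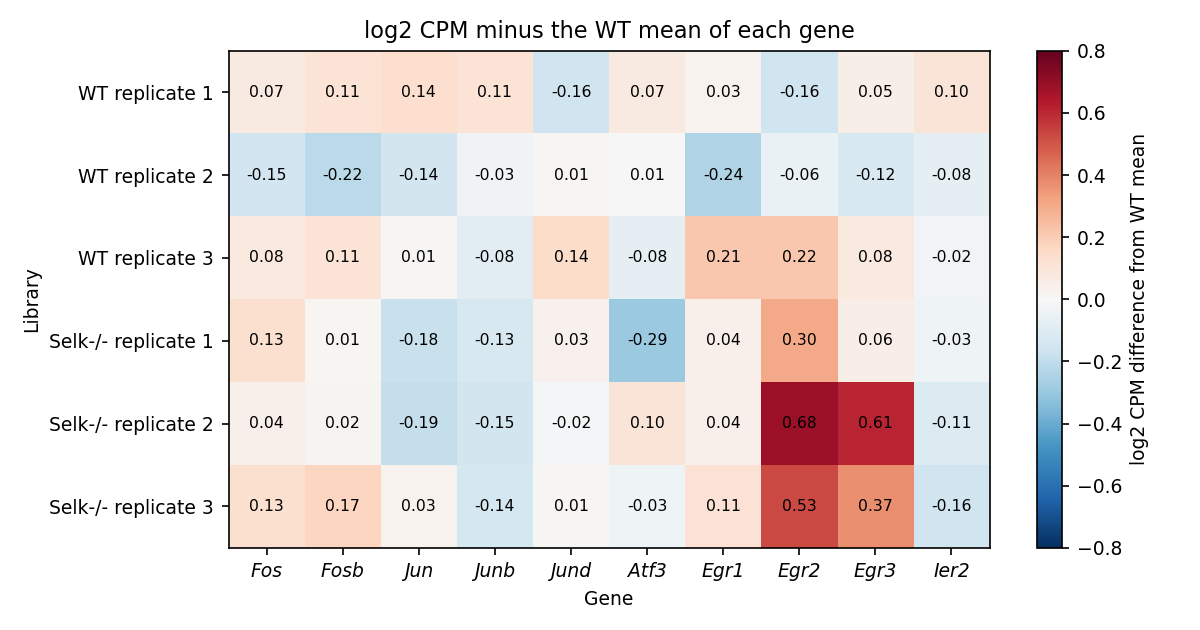
Log2 CPM of each gene (columns) in each library (rows) minus that gene's WT mean, on a colour scale from -0.8 to 0.8. Egr2 is at 0.30, 0.68 and 0.53 in Selk-/- replicates 1 to 3 and Egr3 at 0.06, 0.61 and 0.37, while the values of the other 8 genes lie between -0.295 and 0.21 in all 6 libraries.

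Libraries within a group were unlike in ways that touch Egr2 and Egr3. Selk-/- replicates 2 and 3 held 46.0 and 54.9 CPM (of the unscaled total) of small nucleolar RNA genes, against 318 to 327 CPM in the other 4 libraries, and they were also the 2 libraries with the highest Egr2 and Egr3. With that split as a block, the log2 fold change was 0.29 for Egr2 (edgeR adjusted p = 0.567) and 0.05 for Egr3 (edgeR adjusted p = 0.914), values that rest on Selk-/- replicate 1 alone. Leaving both libraries out gave 0.31 and 0.07. Neutrophil markers (10 of 10 detected) summed to 501 to 1228 CPM in WT and to 455, 6363 and 1196 CPM in Selk-/- replicates 1 to 3, and replicate 2, with the most, also had the highest Egr2 and Egr3. Without it, the log2 fold change was 0.43 for Egr2 (edgeR adjusted p = 0.23) and 0.24 for Egr3 (edgeR adjusted p = 0.371). Over the 6 leave-one-out fits, Egr2 stayed between 0.42 and 0.63 (edgeR adjusted p = 0.104 to 0.316).

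Microglial markers (8 of 8 detected) were abundant, with Csf1r, the receptor on which microglia depend for survival, at rank 47 in mean FPKM. They summed to 21967 to 22357 CPM in WT and to 18346 to 19015 CPM in Selk-/-. Monocyte and dendritic markers (10 of 10 detected) summed to 796 to 807 CPM in WT and 978 to 1212 CPM in Selk-/-, but 5 of the 10 were higher and 5 lower. Fn1 alone gave 836 CPM of this sum in Selk-/- replicate 1 and Chil3 gave 399.6 CPM in replicate 2. Border macrophage markers (10 of 10) summed to 767 to 1115 CPM in WT and 346 to 701 CPM in Selk-/-, and B cell markers (6 of 6) to 192 to 243 CPM and 153 to 177 CPM. No marker of these lists was at 0 in any library. Endothelial (3229 to 4096 CPM and 3859.7 to 5122 CPM) and neuronal markers (43.6 to 50.2 CPM and 44.7 to 49.1 CPM) overlapped between WT and Selk-/-. In bulk RNA fewer cells of a type and less RNA per cell cannot be told apart, and the part of these other cells in the Egr2 and Egr3 values was not tested.

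**Figure D4:**
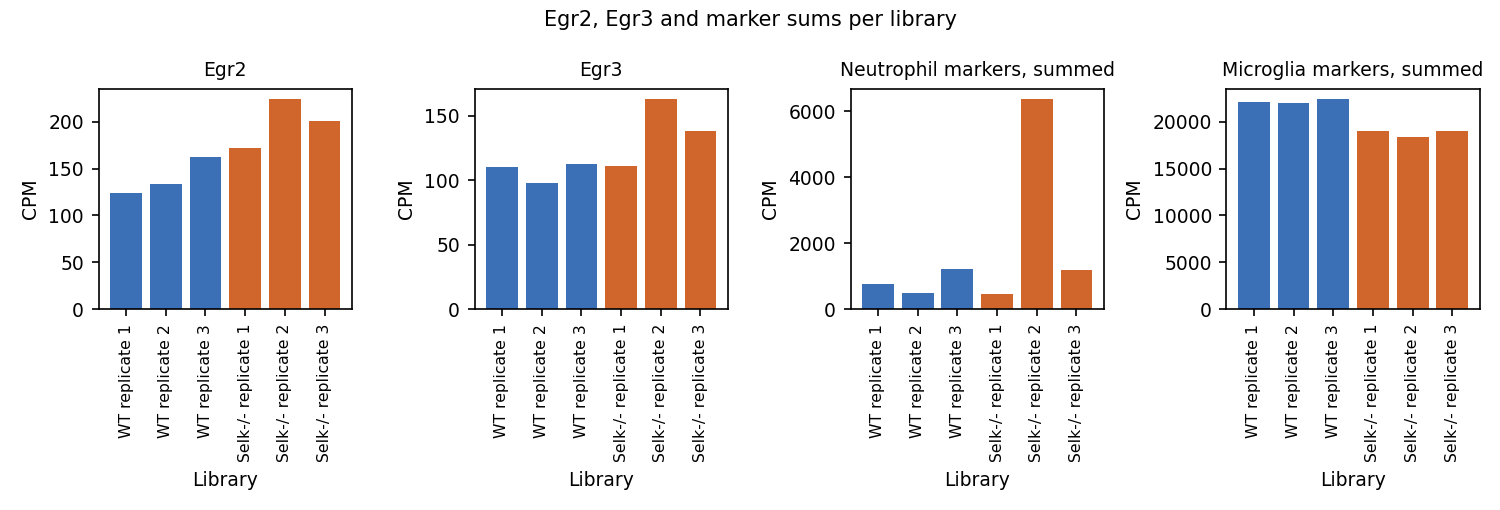
CPM of Egr2 and Egr3 and summed CPM of the neutrophil and microglia marker lists in each library (bars from 0, blue WT, orange Selk-/-). Selk-/- replicate 2 has the highest Egr2 (224 CPM), Egr3 (162 CPM) and neutrophil sum (6363 CPM), and all 3 Selk-/- libraries have a lower microglia sum than any WT library.

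Among the 6 libraries, WT replicate 2 was lowest for 4 members (Fos, Fosb, Egr1 and Egr3) and WT replicate 1 was highest for 3 (Jun, Junb and Ier2). Selk-/- replicate 2 was highest for Atf3, Egr2 and Egr3 and lowest for Jun and Junb, and Selk-/- replicate 3 was highest for Fos and Fosb and lowest for Ier2. The members thus did not share one order of libraries. The coefficient of variation of CPM over the 6 libraries was 6.26% for Ier2, the lowest, and 22.5% for Egr2, the highest. Of 251 tested genes with a mean of at least 500 CPM the median coefficient was 9.33%, and of the 8 members at that level 2, Atf3 (9.40%) and Egr1 (10.1%), were above it.

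Genes with the most similar pattern were sought among 10024 genes with a mean of at least 10 CPM, by Pearson r between their log2 CPM and the mean deviation of the members over the 6 libraries (0.0021, -0.14 and 0.03 in WT, -0.04, 0.07 and 0.07 in Selk-/-). The 5 highest were Pde4a (r = 0.991), Acbd5 (0.985), Gfpt1 (0.9825), Adam9 (0.975) and Clcf1 (0.973), and the 3 lowest were Tmco6 (-0.994), 4632415L05Rik (-0.987) and Sh3bp5l (-0.984). In Selk-/- replicate 2 the members' mean deviation was 0.07 and their median -0.011. Egr2 and Egr3 stood furthest above their WT means there, so the mean is not the pattern of every member. With 6 points and this many genes searched, high values of r are a description of these libraries, which also share depth and cell composition.

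Of 14 other genes for AP-1 subunits and bZIP proteins, 7 were higher and 7 lower, where 48.7% of all genes were higher. Their median log2 fold change was 0.015, with 0 past the edgeR threshold. At an unadjusted p under 0.05, 4 were higher and 1 lower (9.34% and 9.74% of all genes). DESeq2 called 1 as higher and 0 as lower (3.43% and 2.53% of all genes). Fosl2, a FOS relative and the most abundant of them, had 391, 345 and 357 CPM in WT and 312, 344 and 340.5 CPM in Selk-/- (log2 fold change -0.13; edgeR adjusted p = 0.4). Atf4, the factor of the integrated stress response, had 300.3, 287 and 327 CPM in WT and 355, 343 and 335 CPM in Selk-/- (0.18; edgeR adjusted p = 0.261). The smallest p belonged to Mafg, a small MAF partner (100.3, 107 and 112 CPM to 121, 131 and 127 CPM; 0.25, edgeR adjusted p = 0.143, DESeq2 adjusted p = 0.0357), and Batf3, a factor of dendritic cells (12.2, 12.02 and 11.99 CPM to 8.28, 10.02 and 10.6 CPM; -0.33, edgeR adjusted p = 0.202).

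A further 30 immediate early genes split into 13 higher and 17 lower, where 48.7% of all genes were higher. Their median log2 fold change was -0.01, with 0 past the edgeR threshold. At an unadjusted p under 0.05, 4 were higher and 1 lower (9.34% and 9.74% of all genes). DESeq2 called 2 as higher and 1 as lower (3.43% and 2.53% of all genes). Without overlap between the groups, 3 of the 30 were higher and 4 lower (12.5% and 13.7% of all genes). Zfp36, which encodes the mRNA-decay factor tristetraprolin, was the most abundant (2854, 2669 and 2847 CPM in WT, 2635, 2771 and 2701 CPM in Selk-/-; log2 fold change -0.05, edgeR adjusted p = 0.748). Rhob, an endosomal GTPase gene, had 2579.8, 2860.1 and 2581 CPM in WT and 2539, 2063 and 2459.8 CPM in Selk-/- (-0.18; edgeR adjusted p = 0.354). Btg2, an antiproliferative gene, had 1808, 1829 and 1803 CPM in WT and 1414, 1629 and 1538 CPM in Selk-/-, without overlap (-0.25; edgeR adjusted p = 0.162, DESeq2 adjusted p = 0.0296). Mcl1, a survival gene of the BCL2 family, had 895, 981 and 1037 CPM in WT and 1137, 1336 and 1123 CPM in Selk-/-, also without overlap (0.30; edgeR adjusted p = 0.168, DESeq2 adjusted p = 0.0297).

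Upstream, 23 kinases and factors known to induce these genes had 9 higher and 14 lower members, where 48.7% of all genes were higher. Their median was -0.004, with 0 past the edgeR threshold. At an unadjusted p under 0.05, 5 were higher and 1 lower (9.34% and 9.74% of all genes). DESeq2 called 3 as higher and 1 as lower (3.43% and 2.53% of all genes). Rps6ka1, the ERK-activated kinase RSK1 and the most abundant, had 343, 303 and 340.1 CPM in WT and 268, 239.9 and 269.6 CPM in Selk-/- (log2 fold change -0.34; edgeR adjusted p = 0.118, DESeq2 adjusted p = 0.00552). Mapk3, the kinase ERK1, had 209, 195 and 179 CPM in WT and 180.1, 165 and 173 CPM in Selk-/-, which overlapped (-0.17; edgeR adjusted p = 0.3). Mapk8, the JUN kinase JNK1, had 28.9, 30.9 and 33.3 CPM in WT and 41.4, 39.3 and 39.4 CPM in Selk-/- (0.37; edgeR adjusted p = 0.108, DESeq2 adjusted p = 0.0089).

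The phosphatases and repressors that end the response gave 10 higher and 6 lower of 16, where 48.7% of all genes were higher. Their median was 0.06, with 0 past the edgeR threshold. At an unadjusted p under 0.05, 1 was higher and 0 were lower (9.34% and 9.74% of all genes). Without overlap between the groups, 1 of the 16 was higher and 0 were lower (12.5% and 13.7% of all genes). DESeq2 called 1 as higher and 0 as lower (3.43% and 2.53% of all genes). Dusp1, the nuclear phosphatase of the MAP kinases, had 1613, 1771 and 1741 CPM in WT and 1674, 1381 and 1685 CPM in Selk-/- (log2 fold change -0.11; edgeR adjusted p = 0.557). Nfkbia, the NF-kB inhibitor, had 1612, 1676 and 1537 CPM in WT and 1558, 1626 and 1545 CPM in Selk-/- (-0.03; edgeR adjusted p = 0.853). Dusp6, the cytoplasmic ERK phosphatase, had the smallest p, with 384, 398 and 408 CPM in WT and 471, 519 and 487 CPM in Selk-/- and no overlap (0.31; edgeR adjusted p = 0.109, DESeq2 adjusted p = 0.00104). Nfkbiz, an inducible NF-kB cofactor gene, had 861, 746 and 919 CPM in WT and 869, 1191 and 1008 CPM in Selk-/- (0.28; edgeR adjusted p = 0.294).

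Other gene groups named in isolation activation of microglia had larger shifts than the AP-1 and EGR genes, though 0 of their genes passed the edgeR threshold; the difference between lists was not tested. Of 15 cytokine and chemokine genes 12 were higher, with a median log2 fold change of 0.36, and 5 were higher and 0 lower at an unadjusted p under 0.05, where 48.7% of all genes were higher by sign and 9.34% and 9.74% were higher and lower at that p. DESeq2 called 5 of the 15 as higher and 0 as lower (3.43% and 2.53% of all genes). Ccl3, a monocyte-attracting chemokine, had 243, 356 and 317 CPM in WT and 429, 634 and 501 CPM in Selk-/- (0.77; edgeR adjusted p = 0.121, DESeq2 adjusted p = 0.000301), and Il6 had 10.5, 14.2 and 12.2 CPM and 17.3, 21.4 and 19.1 CPM (0.64; edgeR adjusted p = 0.107, DESeq2 adjusted p = 0.00379). The most abundant, Cd83 (510.4, 693 and 442 CPM to 502, 701 and 536 CPM) and Il1a (436, 400.4 and 475 CPM to 426, 846 and 504 CPM), overlapped between groups. Selk-/- replicate 2, the library with the most neutrophil markers, was the highest library for all 15 genes. Its part in these shifts was not tested. Of 11 heat shock genes 11 were higher, with a median of 0.77, and 8 were higher at an unadjusted p under 0.05 (48.7% and 9.34% of all genes). DESeq2 called 7 of the 11 as higher (3.43% of all genes). Hspa8, the constitutive HSC70, had 1622, 2106 and 1858 CPM in WT and 2087, 3123 and 2471 CPM in Selk-/- (0.46; edgeR adjusted p = 0.196, DESeq2 adjusted p = 0.0295), and Hsp90aa1 had 456, 477 and 521 CPM and 676, 1012 and 833 CPM (0.79; edgeR adjusted p = 0.105, DESeq2 adjusted p = 5.9e-06). Bag3, the co-chaperone with the smallest p, had 42.2, 44.7 and 45.3 CPM and 56.2, 58.2 and 61.7 CPM (0.41; edgeR adjusted p = 0.105, DESeq2 adjusted p = 0.000381). Over the whole list, Selk-/- replicate 2 was the highest library for 5 genes and Selk-/- replicate 3 for 6, the 2 libraries low in small nucleolar RNA, whose part in these values was not tested.

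**Figure D5:**
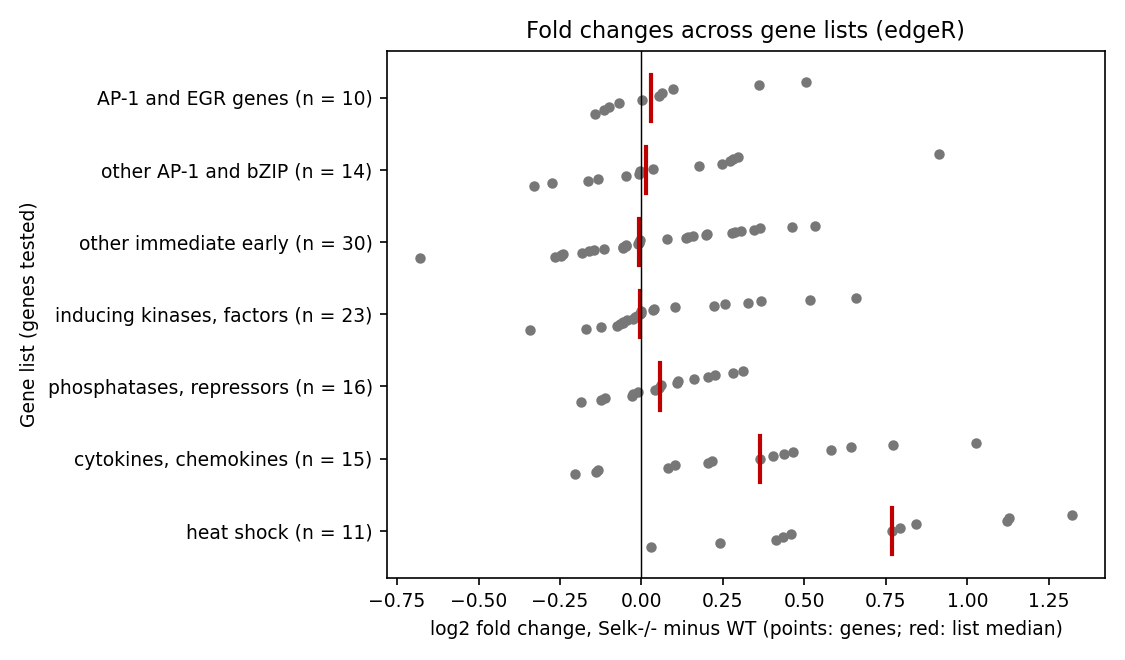
Log2 fold changes (Selk-/- minus WT, edgeR) of every tested gene in 7 lists, with the list median in red. The AP-1 and EGR genes have a median of 0.03, the cytokine list 0.36 and the heat shock list 0.77.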

How the data were processed

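RNA-seq of 6 libraries was analysed from 1 deposited table. Its raw counts per gene and its FPKM values were made by the authors, who, per the labels' protocols, used Hisat2 2.0.5 for alignment, stringtie 2.2.0 for quantification and DESeq2 1.20.0 for testing. The submitters' processing notes differ and name Bowtie 0.12.2, mm8 and mm9. The table names no build. Totals were 21112082 to 28123871 counts per library, and the members had 2592 counts or more. Groups follow the genotype labels and replicates are numbered in accession order.

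The deposited counts were fitted with edgeR 4.0.16 in R 4.3.3 (TMM, filterByExpr, robust quasi-likelihood, two-sided, Benjamini-Hochberg 0.05 over 17739 genes, no covariate). Standard errors come from the quasi-likelihood F. CPM use TMM-scaled totals. Alternatives were DESeq2 1.42.0, limma 3.58.1 (voom, and log2 of FPKM plus 1 or 0.1), other scalings and filters, a block on the small nucleolar RNA split, and leaving out libraries. Data for this comparison were simulated gene by gene over 17491 genes at the fitted dispersions, with 67, 67 and 66 genes changed 1.5-, 2- and 4-fold. There edgeR called 28.4% of genes changed 1.5-fold, 76.1% changed 2-fold and 97.0% changed 4-fold, with 12 false calls. Shifts that many genes share within a library were not simulated, so the shares may not hold for these libraries. Within groups, chi-square per degree of freedom between libraries was 14.8 to 48.3, far above sampling noise, and no library was treated as a duplicate. Genes named are all 10 members, and of each other list the 2 most abundant and the 2 with the smallest edgeR p. Members, lists and alternatives were chosen with earlier results of these data known, and leaving out both libraries low in small nucleolar RNA and fitting the 4 libraries with a shared title number were added last.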

Additional observations from a re-analysis of the deposited data

How the results depend on the processing

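Over 20 alternatives, the number of genes past the threshold was 0 except in the 4-library fits given last, 92 under a floor of 10 CPM in 3 libraries, a filter that tests fewer genes, and 1056 with DESeq2; leaving out single libraries gave 0 to 59 (59 without Selk-/- replicate 1 and 1 without Selk-/- replicate 2). The number of members past it was 0 except 1, Egr2, with DESeq2. The members' median log2 fold change, 0.03, ranged from -0.0428 to 0.1073 (without WT replicate 3) on leaving out single libraries. Jund, at 0.003, became -0.0080 with library totals only, -0.0241 with no filter, -0.0070 under the 10 CPM floor, -0.0095 on log2(FPKM + 1) with or without the filter, -0.0096 on log2(FPKM + 0.1), and spanned -0.0734 to 0.0893 over the fits without 1 library. Leaving out single libraries gave -0.0324 to 0.13 for Fosb, -0.0532 to 0.18 for Egr1 (both below 0 without WT replicate 2) and -0.14 to 0.0451 for Atf3 (above 0 without Selk-/- replicate 1). The other 6 members kept their direction in all 20. What caused these differences was not tested. No scaling moved the median of all genes by 0.1 in log2. Titles of the groups share the numbers 3 (WT replicate 1, Selk-/- replicate 3) and 6 (replicate 2 of each), though the first pair's Selk-/- title carries another number too. A replicate block over these 4 libraries, chosen after seeing the data, called 19 genes and 0 members, with a members' median of 0.1055 and Atf3 at 0.0035; without the block the same 4 libraries gave 29 genes, 0 members, 0.1024 and 0.0043. Egr2 was at 0.72 and 0.73 and Egr3 at 0.54 in both, and both Selk-/- libraries of these pairs are low in small nucleolar RNA. Deviations from group means correlated at 0.141 and -0.128 within the pairs, and at -0.0327 and -0.139 between libraries with unlike numbers. Values this few cannot tell whether paired samples share more than a number, which the labels do not say.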

Other observations

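The balance of FOS to JUN, read within a library and so free of scaling between libraries, was noticed after the values were seen. Fos FPKM per 100 of Jun FPKM was 146, 152 and 160.4 in the WT libraries; the Selk-/- libraries had 189, 179.7 and 165, without overlap. Egr2 per 100 of Egr1 was 6.80, 8.86 and 7.87 in WT and 9.32, 12.3 and 10.3 in Selk-/-, also without overlap. Of 6 such ratios the other 4 overlapped, Junb per 100 of Jun (187 to 216 in WT, 177 to 206 in Selk-/-), Jund per 100 of Jun (44.5 to 60.7 and 53.8 to 63.0), Fosb per 100 of Fos (32.4 to 34.6 and 30.7 to 34.3) and Egr3 per 100 of Egr1 (4.31 to 5.32 and 4.79 to 7.07). These pairs were picked by their values, so no test is given. For scale, the 2 groups did not overlap for 26.2% of single genes tested, Egr2 among them. The share over ratios of other gene pairs was not computed.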
